A study of Mus musculus with 6 samples.

Results

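The circRNAs described here were those of 5 host genes of hepatic de novo lipogenesis: Mlxipl, Acly, Acacb, Me1 and Pnpla3. They comprised every listed circRNA with one of these gene names, which gave 26 entries of 7469 circRNAs listed and 5 of 3468 host genes. Entries of the same strand and end whose starts lay 1 bp apart were to be summed into a single junction. None of the 26 had such a partner, so that they stand for 26 of the 7122 junctions of the series. The genes were chosen because the difference between the diets in these same libraries was known, so the values by diet below are a description of that choice and carry no test.

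The study compared liver RNA of C57BL/6J mice fed a high-fat diet (HFD, 3 libraries) with that of mice fed a low-fat diet (LFD, 3 libraries). All mice were 12 weeks old. They were males, fasted before the liver was taken. Ribosomal RNA was depleted from total liver RNA, and the study's methods add a digestion with RNase R, an enzyme that removes linear RNA, which the sample descriptions do not name. For each circRNA the number of back-spliced reads was given, that is of reads across the point at which a circle closes on itself. SRPBM is the same number after scaling by how many reads each library mapped.

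In de novo lipogenesis the liver turns surplus carbohydrate into fatty acids. Mlxipl encodes ChREBP, a transcription factor that responds to glucose metabolites and activates genes of glycolysis and lipogenesis. ATP citrate lyase (Acly) splits exported citrate into acetyl-CoA, acetyl-CoA carboxylases make malonyl-CoA from it, and malic enzyme (Me1) supplies NADPH for the synthesis of the chain. The carboxylase encoded by Acacb sits at the mitochondrion, where its malonyl-CoA restrains the uptake of fatty acids for oxidation, and Pnpla3 encodes a lipid droplet protein of the patatin-like phospholipase family. An exonic circRNA arises when the splicing machinery joins the 3′ end of an exon to the 5′ end of the same or an earlier exon. Intronic entries, 4 of the members here, consist of intron sequence instead. The level of a circRNA is therefore not the level of the mRNA, which was not measured in these values.

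The junctions on which the results turn are shown first, because a read is assigned to a circle only through this sequence. Each is written 5′ to 3′ with the last 20 bases of the circle in lower case and its first 20 bases, where the circle starts again, in capitals. They were read from the GENCODE M21 transcripts (GRCm38) that the listed circRNAs name.
circRNA984 (Mlxipl): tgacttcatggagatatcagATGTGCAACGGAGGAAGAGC
circRNA985 (Mlxipl): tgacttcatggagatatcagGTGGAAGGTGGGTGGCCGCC
circRNA1452 (Me1): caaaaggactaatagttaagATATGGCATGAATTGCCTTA
circRNA4772 (Me1): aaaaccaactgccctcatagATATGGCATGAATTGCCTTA
circRNA4191 (Acly): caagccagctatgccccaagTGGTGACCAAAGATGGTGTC
circRNA4192 (Acly): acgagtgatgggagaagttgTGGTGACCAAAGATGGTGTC
circRNA238 (Acly): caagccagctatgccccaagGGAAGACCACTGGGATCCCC
circRNA4542 (Acacb): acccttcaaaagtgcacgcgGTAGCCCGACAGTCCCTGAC
circRNA4837 (Pnpla3): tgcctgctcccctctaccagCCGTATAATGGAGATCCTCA
The endings of circRNA984 and circRNA985 were the same, since both close on exon 7 of Mlxipl. CircRNA1452 and circRNA4772 began with the same bases, from exon 7 of Me1, as did circRNA4191 and circRNA4192, from exon 7 of Acly. CircRNA238 and circRNA4191 shared their ending instead, at exon 13 of Acly.

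CircRNA4550 is shown whole, because it was the only exonic member formed of a single exon. Its 157 bases, at chr5:135133252-135133408 on the plus strand, are exon 11 of 17 in the Mlxipl transcript used, one annotated as subject to nonsense-mediated decay. The Mlxipl transcript used for circRNA984 and circRNA985 is a different one with the same annotation.
circRNA4550, whole circle: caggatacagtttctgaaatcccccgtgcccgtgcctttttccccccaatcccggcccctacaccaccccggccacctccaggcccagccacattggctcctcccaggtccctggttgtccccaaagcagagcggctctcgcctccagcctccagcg
circRNA4550, junction: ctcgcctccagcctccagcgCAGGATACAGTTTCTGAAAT

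The 22 exonic entries all ended at an annotated exon end, against 97.5% of all exonic entries. Of the 22, 21 began at an exon start, against 87.8% of all. All 22 consisted of coding sequence, against 76.7% of all exonic entries placed on their transcript. None held the first exon, and of all 6353 exonic entries so placed only 34 did. Their median spliced length was 366 bp with a range of 135 to 1259 bp, against a median of 398 bp for all exonic entries, and the median number of exons was 3 in both. The median intron upstream measured 3880.5 bp against 6968 bp for all, and the median intron downstream 2520 bp against 5250 bp. These are given as descriptions, since circles of a gene share their introns and are not independent.

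The members shared splice sites within their gene. The 9 circles of Me1 used 6 different starts and 4 different ends, spread over exons 2 to 10 of 14. The 6 circles of Acly used 4 starts and 4 ends over exons 7 to 20 of 29. The 4 exonic circles of Mlxipl lay in exons 3 to 7 and in exon 11, and the remaining Mlxipl entry was intron 4 in full. Acacb had an exonic circle of exons 17 to 19, another of exons 4 to 7 of 53, and 3 intronic entries in introns 17, 42 and 43. The plot of exons shows which stretch of each gene the circles covered.

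**Figure D1:**
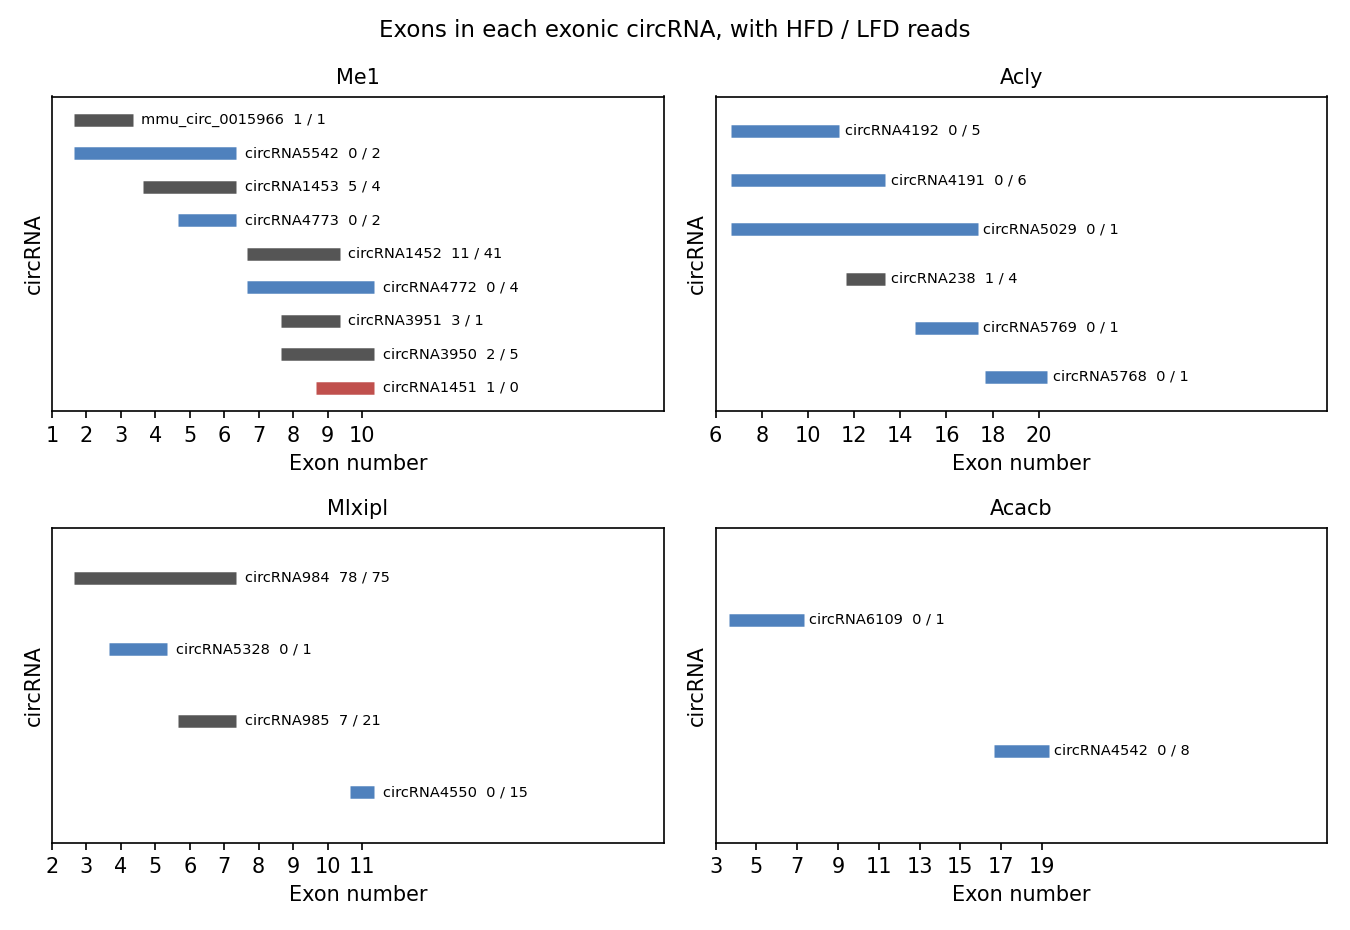
Exonic circles of Mlxipl, Me1, Acly and Acacb drawn along the exon number of their transcript (x axis, exon number), each line spanning the first to the last exon of a circle, with the summed back-spliced reads in HFD and LFD beside it; red lines had reads in HFD alone, blue lines in LFD alone and grey lines in both. The Mlxipl circle of exons 3 to 7 carried 78 reads in HFD and 75 in LFD, while the Acly and Acacb circles were mostly blue.

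Across the 6 libraries the 26 entries held 333 of 36218 back-spliced reads. Library totals lay between 5384 and 6590 reads, so that 3 reads, taken as the smallest signal told from none, correspond to 0.688 to 0.830 SRPBM. Of the entries 14 had reads in at least 2 libraries, 12 in a single library with at most 4 reads, and 2 in all 6. HFD 1 and LFD 3 stood apart in the share of intronic reads, with 10.8% and 8.28% against 4.56% to 5.43% in the others. The members' part of these reads is small, and any interval below covers counting error only.

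The family total was lower in every HFD library than in any LFD library. It came to 36, 46 and 29 reads in HFD libraries 1, 2 and 3, and to 73, 85 and 64 reads in LFD libraries 1, 2 and 3. As a share of the back-spliced reads these were 0.561%, 0.698% and 0.483% in HFD against 1.36%, 1.54% and 1.02% in LFD. The highest HFD share had a 95% Wilson interval of 0.524% to 0.930%, and the lowest LFD share one of 0.798% to 1.30%, so that these intervals overlapped although the values did not. On the SRPBM scale the means were 9.25 ± 2.14 (SD, n = 3) in HFD and 19.9 ± 3.35 (SD, n = 3) in LFD, a ratio of -1.11 on the log2 scale or 2.16-fold lower in HFD. Without HFD 1 and LFD 3 the ratio was -1.14. In bulk liver, fewer cells of a type and less RNA per cell cannot be told apart.

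**Figure D2:**
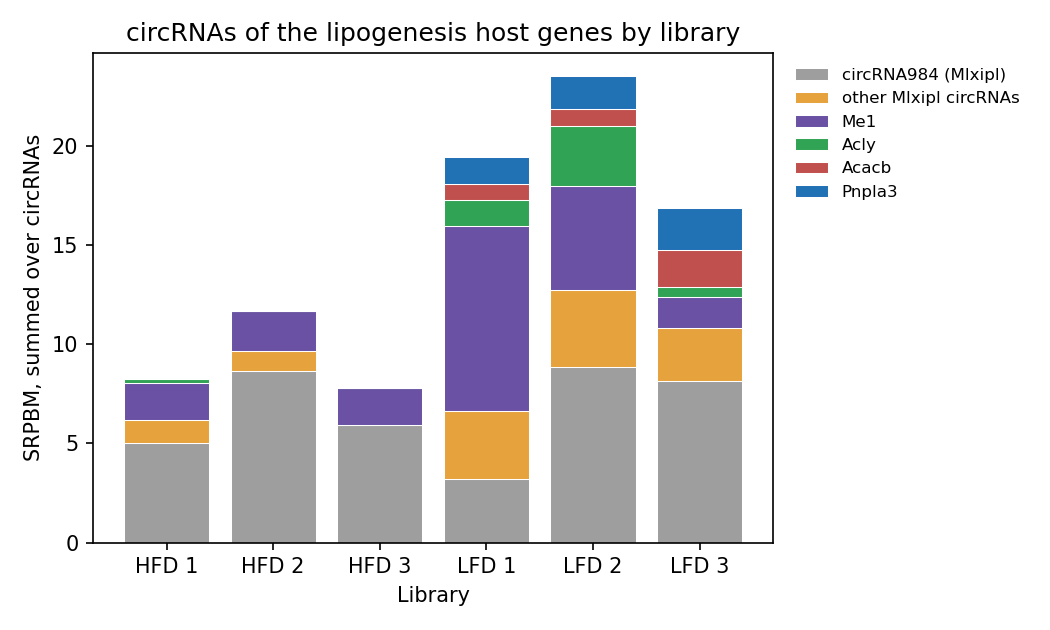
Stacked SRPBM of the 5 host genes in each of the 6 libraries (y axis, SRPBM). There is 1 bar per library, with colours for genes, and circRNA984 has a colour apart from the other Mlxipl circRNAs. The HFD bars reach 8.26, 11.7 and 7.79 SRPBM and the LFD bars 19.4, 23.5 and 16.9 SRPBM, with Mlxipl the largest part of every HFD bar.

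Fewer different circles were seen in HFD as well. Entries with at least 1 read numbered 7, 4 and 5 in HFD (mean 5.33 ± 1.53, SD, n = 3) and 11, 17 and 13 in LFD (mean 13.7 ± 3.06, SD, n = 3). All listed entries with reads numbered 2131, 2043 and 1843 in HFD and 1752, 1791 and 2093 in LFD. Of the 26 entries, 16 (61.5%) had reads in LFD alone, 2 (7.69%) in HFD alone and 8 in both. Over the whole series 37.4% of entries had reads in LFD alone and 41.0% in HFD alone. Most of these entries rest on few reads, as the plot of reads by entry shows.

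**Figure D3:**
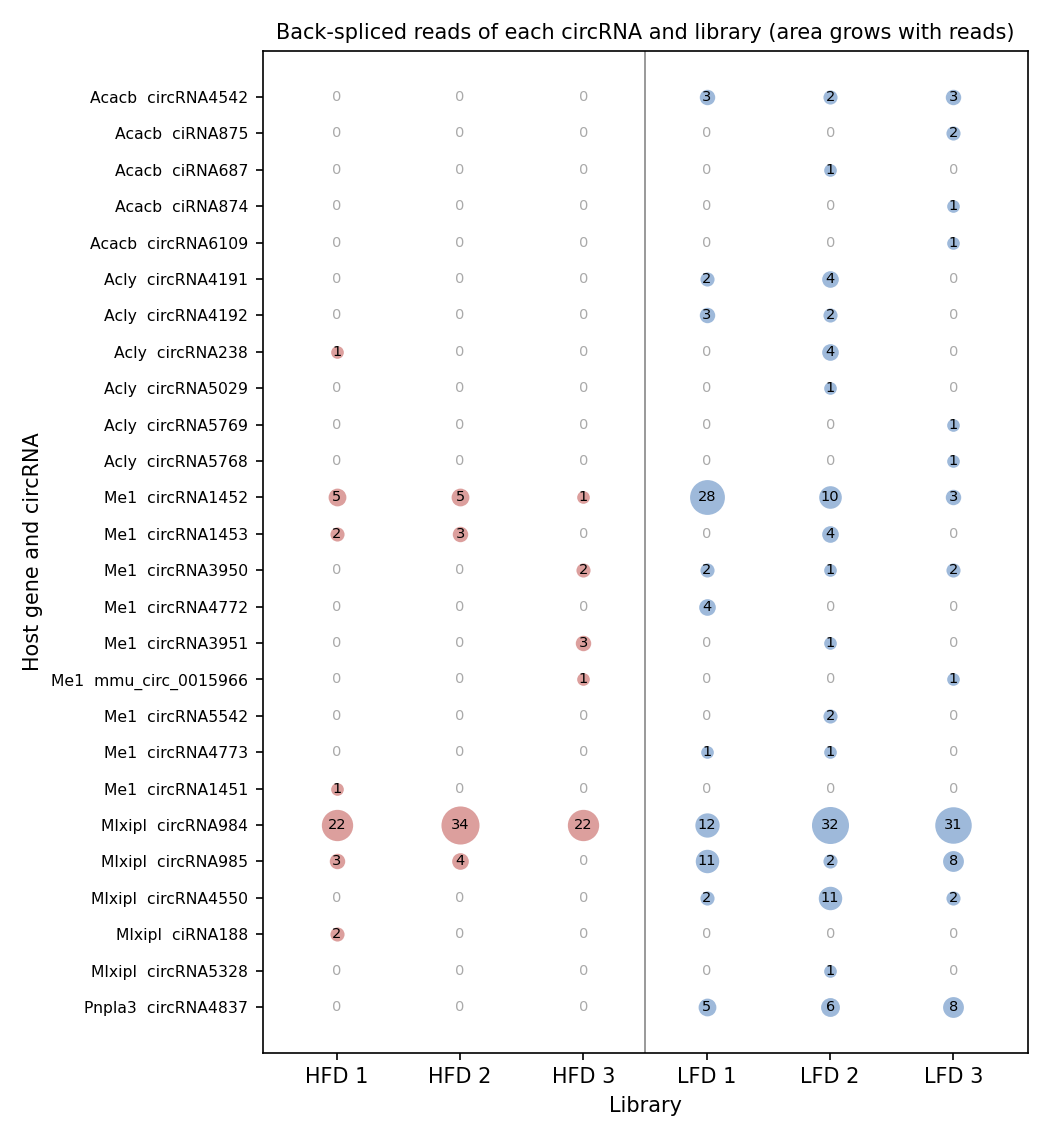
Back-spliced reads of the 26 entries (rows, grouped by host gene) in the 6 libraries (columns), with the number of reads given in each dot. CircRNA984 has reads in every library, from 12 to 34, while most other rows are empty in HFD.

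Mlxipl, the transcription factor, carried the most reads of the family, 199 of 333. Its 5 entries summed to 27, 38 and 22 reads in HFD and to 25, 46 and 41 reads in LFD. The diets overlapped, with means of 7.26 ± 2.09 (SD, n = 3) and 10.1 ± 3.11 SRPBM (SD, n = 3), a log2 ratio of -0.47.

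Most Mlxipl reads came from a single circle whose means in the diets were close. CircRNA984 (chr5:135121506-135124017, plus strand, exons 3 to 7, 501 bp) had 22, 34 and 22 reads in HFD and 12, 32 and 31 reads in LFD. Its means were 6.54 ± 1.88 and 6.74 ± 3.09 SRPBM (SD, n = 3 each), and it ranked 17th of all entries by reads. It made up 76.9% of the Mlxipl reads and 45.9% of all member reads, or 70.3% in HFD and 33.8% in LFD.

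The remaining Mlxipl entries were together at a lower level in HFD. Without circRNA984 the gene had 5, 4 and 0 reads in HFD and 13, 14 and 10 in LFD, that is 0.722 ± 0.628 against 3.32 ± 0.630 SRPBM (SD, n = 3 each), 4.61-fold lower in HFD with no overlap. CircRNA985, which ends at the same exon as circRNA984 but begins at exon 6 and measures 283 bp, had 3, 4 and 0 reads in HFD and 11, 2 and 8 in LFD. These overlapped, at 0.569 ± 0.519 and 1.86 ± 1.21 SRPBM (SD, n = 3 each).

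The single-exon circRNA4550 had no read in any HFD library and 2, 11 and 2 reads in LFD. Set against 3 reads in each HFD library, this is at least 1.82-fold lower in HFD, with most of the LFD reads in 1 library. Without that library, LFD 2, both diets lay at or under 3 reads per library, and no fold could be given. Its introns measured 75 bp upstream and 135 bp downstream. Of the exonic entries with an intron on both sides, 6274 in all, 0.367% had both introns no longer than these. Single-exon circles were 346 of the exonic entries placed on their transcript, or 5.45%. Exon 11 with both its ends was present in 4 of the 10 annotated Mlxipl transcripts. The other Mlxipl entries, circRNA5328 (exons 4 to 5) and the intronic ciRNA188, had 1 read in LFD 2 and 2 reads in HFD 1.

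Acly, which makes the acetyl-CoA for the pathway, had a single read in the HFD libraries. Its 6 circles summed to 1, 0 and 0 reads in HFD and to 5, 11 and 2 reads in LFD, with no overlap. The closest libraries, HFD 1 with 1 read and LFD 3 with 2, both lay under the level of 3 reads. The means were 0.0765 ± 0.132 and 1.63 ± 1.29 SRPBM (SD, n = 3 each), at least 2.17-fold lower in HFD. LFD 2 held most of these reads, and without it the bound on the log2 scale was -0.30 in place of -1.12.

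No single Acly circle carried the difference. CircRNA4191 (chr11:100504203-100516906, minus strand, exons 7 to 13, 813 bp) had 2, 4 and 0 reads in LFD and none in HFD. CircRNA4192 (chr11:100512876-100516906, exons 7 to 11, 567 bp) had 3, 2 and 0 reads in LFD and none in HFD. CircRNA238 (chr11:100504203-100505009, exons 12 to 13, 246 bp) had 4 reads in LFD 2 and 1 read in HFD 1. The other 3 circles, circRNA5029, circRNA5768 and circRNA5769, had 1 read each in an LFD library.

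Acacb, the carboxylase linked to the restraint of fatty acid oxidation, had no read in HFD. Its 5 entries summed to 3, 3 and 7 reads in LFD, or 1.16 ± 0.596 SRPBM (SD, n = 3), at least 1.54-fold lower in HFD. Without LFD 3 both diets lay at or under 3 reads per library, and no fold could be given. CircRNA4542 (chr5:114203390-114207370, plus strand, exons 17 to 19, 432 bp) was the one Acacb circle seen in every LFD library, with 3, 2 and 3 reads. The other exonic circle, circRNA6109, had 1 read in LFD 3. The intronic entries had 1, 1 and 2 reads in all. Of these, ciRNA687 and ciRNA875 spanned introns 42 and 43 in full, and ciRNA874 stopped 36 bp short of the end of intron 17. The intronic reads all came from LFD 2 and LFD 3, and LFD 3 is a library with a high intronic share, whose part in these entries was not tested.

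Me1, the source of NADPH, had the most circles of the 5 genes. Its 9 circles summed to 8, 8 and 7 reads in HFD and to 35, 19 and 6 reads in LFD. The HFD libraries were close together, at 1.92 ± 0.105 SRPBM (SD, n = 3), and the LFD libraries wide apart, at 5.39 ± 3.87 SRPBM (SD, n = 3), with LFD 3 below all HFD libraries. The ratio of the means, 2.81-fold lower in HFD or -1.49 on the log2 scale, was -0.84 without LFD 1.

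CircRNA1452 made up most of this. It is formed of exons 7 to 9 (chr9:86611853-86619834, minus strand, 322 bp) and had 5, 5 and 1 reads in HFD and 28, 10 and 3 in LFD, a 4.10-fold lower mean in HFD with overlap. The other Me1 circles together had 3, 3 and 6 reads in HFD and 7, 9 and 3 in LFD, that is 1.02 ± 0.513 against 1.72 ± 0.860 SRPBM (SD, n = 3 each). The difference in Me1 thus lay mainly in a single circle and a single library.

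Among those other Me1 circles the reads were spread over both diets. CircRNA1453 (exons 4 to 6, 342 bp) had 2, 3 and 0 reads in HFD and 0, 4 and 0 in LFD. CircRNA3950 (exons 8 to 10, 318 bp) had 0, 0 and 2 reads in HFD and 2, 1 and 2 in LFD, and circRNA3951, which begins at the same exon but ends at exon 9, had 3 reads in HFD 3 and 1 read in LFD 2. CircRNA4772, which begins with circRNA1452 and extends 1 exon further, had 4 reads in LFD 1 and none elsewhere. CircRNA4773 had 1 read in LFD 1 and 1 read in LFD 2, and mmu_circ_0015966, the one member with a database name, had 1 read in HFD 3 and 1 read in LFD 3. The last 2 circles had reads in a single library, circRNA5542 with 2 in LFD 2 and circRNA1451 with 1 in HFD 1.

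Pnpla3 had a single circle, and its reads fell in the LFD libraries alone. CircRNA4837 (chr15:84171083-84186081, plus strand, exons 2 to 8 of 8, 963 bp) had 0 reads in each HFD library and 5, 6 and 8 reads in LFD, or 1.70 ± 0.391 SRPBM (SD, n = 3). This is at least 2.26-fold lower in HFD. A count of 0 in an HFD library allows up to 3 reads.

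The ends of circRNA4837 set it apart from the other exonic members. The listed start lay 1 bp inside exon 2, which begins at 84171082. Such a start is common in the series, with 640 of all 6406 exonic entries. With exon 2 whole the circle would measure 964 bp, and the capitals of its junction would begin with a further G. The listed end lay within the last exon, 105 bases into it with 125 bases left. The last exon of a transcript has no intron behind it, and of all exonic entries 0.843% were placed with the last exon in the circle. The end coincided with an exon end of the other of the 2 annotated Pnpla3 transcripts, and lay 1 bp before the last coding base. The transcript across this point, with the next 2 bases after the circle in capitals, reads as follows.
Pnpla3 transcript across the end of circRNA4837: tgcctgctcccctctaccagGTaaatactt
The capitals GT are the letters with which most introns begin. This is a description of the letters, and use of the site was not tested.

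Read against the whole table, the members' values were these. A junction passed when edgeR's quasi-likelihood test gave it a log2 fold change of 1 or more in either direction and a p under 0.05 before adjustment. Of all 2089 junctions tested 47 passed (2.25%), 24 lower in HFD (1.15%) and 23 higher (1.1%). Of the 14 member junctions tested 4 passed, all lower in HFD: circRNA4837, circRNA4542, circRNA4550 and circRNA1452. The choice of the genes used this contrast, so nothing is read from the count. Separate ranges in the diets, with HFD lower, were found for 47 junctions (2.25%), among them the first 3 of these 4, and with HFD higher for 59 (2.82%), among them 0 members. CircRNA4542, however, lay at or under 3 reads in every library, so that no fold can be given for it. CircRNA4550 had 2 reads in each of LFD 1 and LFD 3. Of the members tested 12 of 14 had a log2 fold change below 0, beside 54.4% of all junctions. This share follows the choice of the genes as well, and nothing is read from it. Member junctions without HFD reads, such as circRNA4837, entered the test through their LFD reads alone. CircRNA4542 no longer passed without any one of the 6 libraries, nor with DESeq2, limma on log2(SRPBM + 1) or the replicate number as a block. CircRNA4550 no longer passed without LFD 2, and circRNA1452 no longer without LFD 1 or with limma at either pseudocount. Over the 18 settings run, circRNA4837 passed in 18, circRNA4550 in 17, circRNA1452 in 15 and circRNA4542 in 8. These settings refit the libraries from which the genes were chosen, so the counts show dependence on the settings and carry no support.

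For host genes the same held. Of 1834 tested 43 passed (2.34%), of which 17 were lower in HFD (0.927%) and 26 higher (1.42%). Acly, Acacb, Me1 and Pnpla3 were among those that were lower, while Mlxipl did not pass. HFD lay below LFD without overlap in 54 host genes (2.94%), including Acly, Acacb and Pnpla3, and above it in 60 (3.27%), including 0 members. For Acly this rested on 1 read in HFD 1 against 2 in LFD 3, and Acacb had 3 reads in each of LFD 1 and LFD 2. Me1 no longer passed without HFD 2 or LFD 1, nor with limma at either pseudocount or the replicate number as a block. Acly no longer passed without HFD 2 or LFD 2, and Acacb no longer without both HFD 1 and LFD 3. Over the 16 settings run, Pnpla3 passed in 16, Acacb in 15, Acly in 14, Me1 in 11 and Mlxipl in 0. As for the junctions, these counts come from refits of the same libraries and show dependence on the settings only. With Benjamini-Hochberg adjustment edgeR left 0 junctions and 0 host genes under 0.05, the smallest adjusted p being 0.696 and 0.810, and DESeq2 and limma also left 0. Without a filter on libraries edgeR left 1 junction, which was not a member. At an unadjusted p under 0.05 edgeR had 47 junctions and 43 host genes. The labels do not state that each library came from a separate mouse, while the study's methods give n = 3 per group for the liver RNA. The p-values measure only the spread between these libraries, part of which may be technical.

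The rest of the pathway was looked at through 33 further genes of lipogenesis and its control, of which 13 had back-spliced reads. Their summed reads were 21, 22 and 28 in HFD and 39, 41 and 44 in LFD, with means of 5.98 ± 1.39 and 11.1 ± 0.642 SRPBM (SD, n = 3 each) and no overlap. Of the 8 host genes tested 0 passed the thresholds, beside 2.34% of all. Their median log2 fold change was -0.90 and 6 of the 8 were below 0, where all host genes had a median of -0.05 and 52.6% below 0.

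Acaca, the cytosolic carboxylase and close relative of Acacb, carried most of these reads. It had 11, 10 and 15 reads in HFD and 19, 24 and 19 in LFD, or 3.03 ± 0.863 against 5.57 ± 0.929 SRPBM (SD, n = 3 each). The diets did not overlap, and the edgeR log2 fold change was -0.89 with an adjusted p of 0.810. The elongase gene Elovl5 had 4, 1 and 2 reads in HFD and 2, 6 and 13 in LFD, and the desaturase gene Fads2 had 0, 0 and 5 against 10, 9 and 1. Insig2, which retains the SREBP activation complex in the endoplasmic reticulum, had 1, 5 and 1 reads in HFD and 1, 1 and 1 in LFD. Fasn, singled out after its values were seen because it encodes the fatty acid synthase, had no read in HFD and 2, 0 and 4 in LFD. No back-spliced read was listed for Srebf1, Elovl6, Thrsp, Pklr, Mlx or Mlxip.

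**Figure D4:**
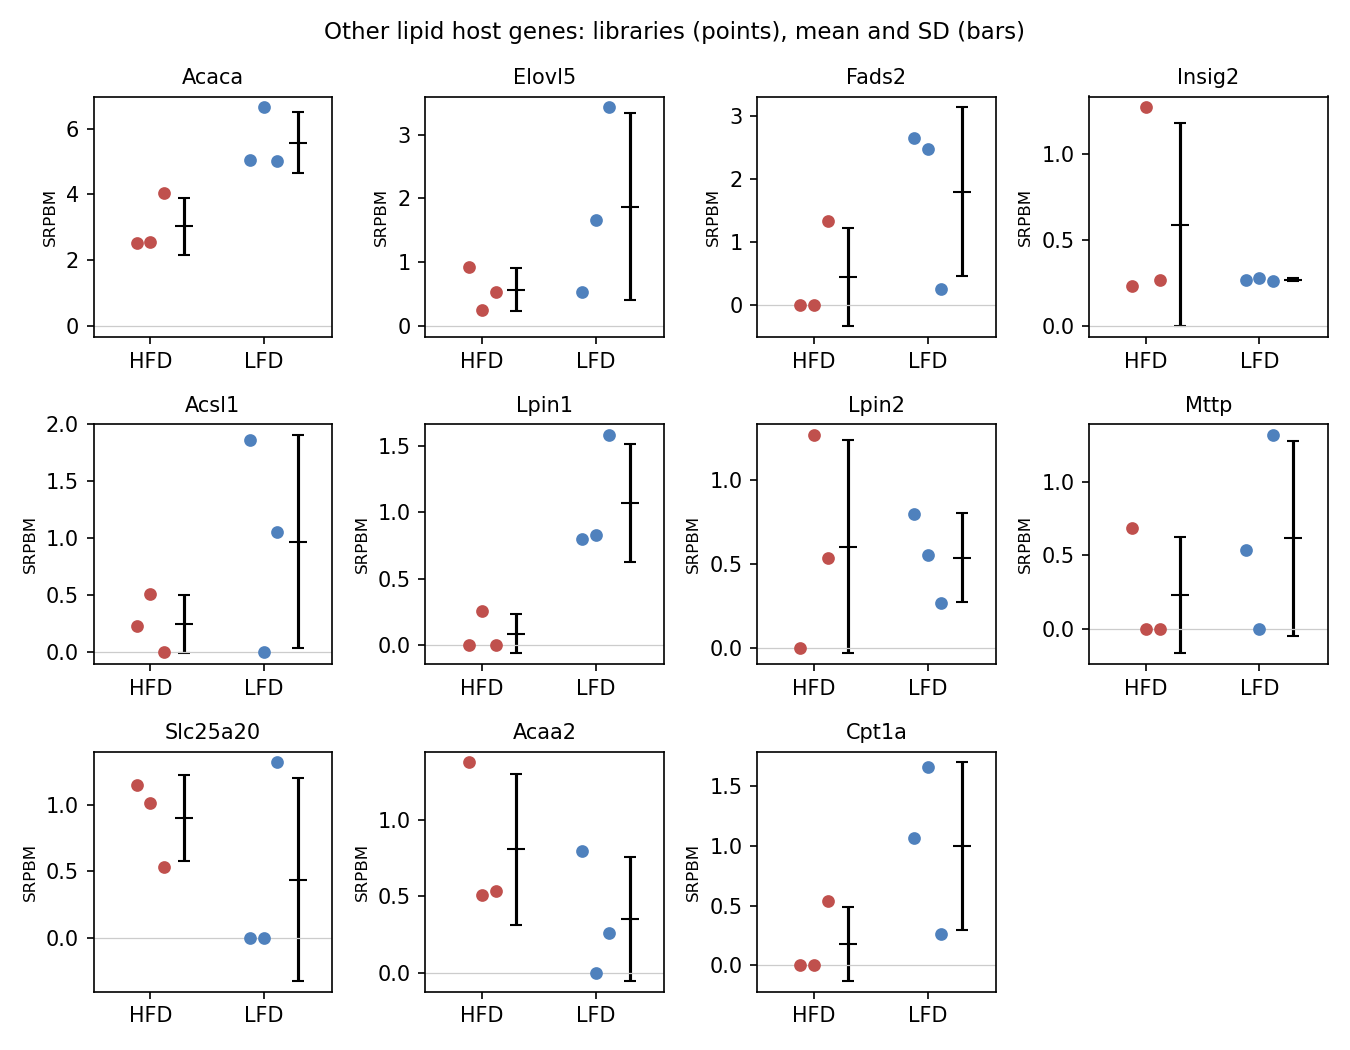
SRPBM (y axis) of 4 host genes of lipogenesis (top row), 4 of triglyceride and lipid droplets (middle row) and 3 of fatty acid oxidation (bottom row), with points for libraries and bars for the mean and SD of 3 libraries. The Acaca points of HFD lie below all those of LFD, as do those of Lpin1, and the other genes shown overlap.

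Of 34 genes of triglyceride synthesis and lipid droplets, 12 had reads and 6 were tested. Their summed reads were 6, 12 and 5 in HFD and 17, 7 and 24 in LFD, with means of 1.92 ± 0.978 and 4.26 ± 2.21 SRPBM (SD, n = 3 each) and overlap. Lpin1, a phosphatidate phosphatase of glycerolipid synthesis, was the only one to pass, lower in HFD with 0, 1 and 0 reads against 3, 3 and 6, with an edgeR unadjusted p of 0.0493 and an adjusted p of 0.810. It no longer passed without any one of HFD 1, HFD 3, LFD 1, LFD 2 and LFD 3. The acyl-CoA synthetase gene Acsl1 had 1, 2 and 0 reads in HFD and 7, 0 and 4 in LFD. Another phosphatase gene of the same family, Lpin2, had 0, 5 and 2 against 3, 2 and 1, and Mttp, which loads lipid onto lipoproteins, had 3, 0 and 0 against 2, 0 and 5. The median log2 fold change of the 6 was -1.54, on few reads.

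Of 30 genes of fatty acid oxidation, 20 had reads, 14 were tested and 0 passed. Their summed reads were 43, 32 and 24 in HFD and 46, 36 and 43 in LFD, with means of 8.15 ± 1.71 and 11.2 ± 1.15 SRPBM (SD, n = 3 each). The SRPBM sums of this list did not overlap either, with 9.86 the highest in HFD and 9.96 the lowest in LFD. Their median log2 fold change was -0.44, with 10 of 14 below 0. Cpt1a, the entry step of mitochondrial oxidation that malonyl-CoA inhibits, had 0, 0 and 2 reads in HFD and 4, 6 and 1 in LFD, with an edgeR adjusted p of 0.810. The carnitine carrier gene Slc25a20 had 5, 4 and 2 reads in HFD and 0, 0 and 5 in LFD, and the thiolase gene Acaa2 had 6, 2 and 2 against 3, 0 and 1. The genes named here thus lay on either side.

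Of 211 host genes outside the family with reads in all 6 libraries and at least 30 reads, the 5 whose SRPBM followed the family total most closely were Lrch3, Acaca, Rhot1, Mertk and Abcc2. Their Pearson correlations over the 6 libraries were 0.925, 0.868, 0.843, 0.800 and 0.800. The 6 points are the same libraries for every gene and fall into 2 diets, so that any gene at lower level in HFD can rank high, and no p is given.

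Circles of markers of liver cell types were also counted. Of 15 hepatocyte markers 12 had reads, with a summed level of 5.85 to 7.80 SRPBM in HFD and 4.43 to 12.7 SRPBM in LFD, and F9, Serpina1a and Cyp7a1 had none. Of 6 Kupffer cell markers 2 had reads, at 0 to 0.459 SRPBM in HFD and 0.527 to 0.830 in LFD. Endothelial markers reached 0 to 0.459 SRPBM in HFD and 0 to 0.277 in LFD (2 of 5 with reads), and of the 5 stellate cell markers Reln alone had 1 read. The 5 cholangiocyte and 4 adipocyte markers had none. The Kupffer cell markers had 2, 0 and 1 reads in HFD and 2, 3 and 2 in LFD. Every library thus lay at or under 3 reads, so that no difference between the diets can be given. The part of these markers in the members' values was not tested.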

How the data were processed

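Liver RNA was sequenced in 3 HFD and 3 LFD libraries, and titles gave the diet of each library. The authors trimmed reads with Cutadapt, used Bowtie2, TopHat2 and TopHat-Fusion for mapping, and took circRNAs from CIRI and CIRCExplorer2. The submitters' processing notes name cutadapt 1.9, TopHat2 2.0.4 and the build mm9, but the listed positions coincide with exon boundaries of GENCODE M21 on GRCm38, which is used here. Per circRNA and library, an unnormalized count of back-spliced reads was deposited. The authors' signal, SRPBM, was also deposited, and equalled the count times a single factor per library for 100% of values, within rounding. Circles were placed by the exons of the GENCODE M21 transcripts that they name, and the exon number that the authors listed did not place them.

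Members and gene lists were chosen with earlier results of these data known. Reads and SRPBM were summed per gene and family, and given as mean ± SD per diet. A diet with at most 3 reads in each library was set to 3 reads per library to give a bound. Junctions and host genes seen in 2 or more libraries entered a test over the whole table with edgeR's quasi-likelihood test (TMM, two-sided, Benjamini-Hochberg adjustment). The same test was first run on simulated data, and its outcome there is not used here. A feature passed at a log2 fold change of 1 or more in either direction with p under 0.05 before adjustment. The common dispersion was 0.882 for junctions and 0.563 for host genes. Alternatives were DESeq2, limma on log2(SRPBM + 0.25) and log2(SRPBM + 1), other scalings and filters, the replicate number as a block and each library left out.

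Reads per library are given for member junctions with at least 5 reads or reads in at least 2 libraries, and the others, with reads in 1 library, are named with their reads. Of each list, the genes past the thresholds and the 4 with most reads are named, except that the result of 1 host gene is not reported here, although counts over lists include it. The genes with the most similar pattern were the 5 with the highest Pearson correlation among host genes with at least 30 reads. Library totals of 5384 to 6590 reads limit precision, and intervals are Wilson 95% intervals. Sequences come from GENCODE M21 transcripts, and those of the intronic entries are not shown. Software was R 4.3.3, edgeR 4.0.16, limma 3.58.1, DESeq2 1.42.0, matplotlib 3.10.9, SciPy 1.17.1, NumPy 2.4.6 and pandas 2.3.3 under Python 3.11.15.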

Additional observations from a re-analysis of the deposited data

How the results depend on the processing

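The family total stayed below 0 under every alternative run, with log2 ratios of -1.31 to -0.97 when each library was left out and -1.12 with a replicate block. The ratio was -2.28 without circRNA984, -1.90 without circRNA984, circRNA4550 and circRNA4837, and -2.31 without Mlxipl, alternatives chosen after seeing the data. Junctions past the thresholds, 47 in all, numbered 15 with DESeq2, 79 and 12 with limma at pseudocounts of 0.25 and 1, 10 with the replicate block, 18 without HFD 1 and LFD 3, and 18 to 41 with each library left out. Host genes, 43 in all, numbered 25, 72, 17, 15 and 27 in the same order, and 34 to 54. Member junctions past the thresholds, 4 in all, numbered 2 with limma at a pseudocount of 1, 3 with the replicate block and 2 to 3 with each library left out. The further lipogenesis genes had 1 in place of 0 with limma at 0.25 (Fads2) and 0 to 1 with each library left out, and the oxidation genes likewise 1 (Cpt1a) and 0 to 1. The triglyceride genes had 0 in place of 1 with reads in at least 3 libraries, limma at 1, the replicate block and without HFD 1 and LFD 3, and 0 to 1 with each library left out. The cause of these shifts was not tested. Same-numbered HFD and LFD libraries deviated with correlations of -0.12, 0.29 and -0.01 over 176 entries, and only the libraries numbered 2 correlated best with their own number, so that the numbers were not taken as pairs. No block value could be given for Acly, Acacb and Pnpla3, which had HFD libraries without reads, nor a value for the largest entry of Acly and Acacb, whose LFD mean was not above the level of 3 reads. Acacb rested on few reads, its bound of -0.62 being -0.09 with exonic junctions alone and -0.12 with medians. Depth limits most members, since 12 of 26 entries had reads in 1 library.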
